A study of Schizosaccharomyces pombe with 4 samples.

Results

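Diploid fission yeast cells (Schizosaccharomyces pombe) with and without H2A.Z were compared 3 h after nitrogen withdrawal, and transcript levels are described here across all named genes on the array. The comparison took the deposited log2 values of the pht1 deletion array at 3 h minus those of the wild type array at 3 h. It covered 2899 genes, the named part of 4999 probe sets, on 2 of the 4 arrays of the series. The other 2 arrays hold the same genotypes at 1.5 h and were used to ask whether a difference at 3 h was also present earlier.

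All 4 samples came from h+/h- diploids that carried ade6-210/216, his5-303/+ and leu1-32/+. The deletion samples were in addition ura4-D18/ura4-D18 and pht1D::ura4+/pht1D::ura4+, so both copies of pht1 were replaced by the ura4+ marker. The wild type was not listed with ura4-D18, so the genotypes differ at ura4 as well as at pht1. Meiosis was started by taking nitrogen away, cells were harvested 1.5 h and 3 h later, poly(A) RNA was purified, and biotin-labelled cRNA was hybridized. The series is titled for a role of H2A.Z in starting meiotic recombination.

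H2A.Z is a variant of histone H2A that the SWR1 remodelling complex places into nucleosomes, mainly beside the starts of genes. In fission yeast, where pht1 encodes it, H2A.Z has been linked to gene silencing, to the suppression of antisense transcripts and to chromosome segregation. On nitrogen withdrawal, cells first use the transcription factor Ste11 and the RNA-binding protein Mei2 to enter meiosis, copy their DNA and recombine in prophase. The forkhead factor Mei4 then turns on the middle genes for the meiotic divisions and spore formation, and Atf21 and Atf31 serve spore genes after it. Many genes of this programme carry names beginning with meu, for meiotic expression upregulated, or mug, for meiotically upregulated gene.

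Each value is the log2 of 1 probe set on 1 array, so 1 unit is a 2-fold difference. The groups hold 1 array each, so the differences have no replicate check, no test and no error, and the number of arrays limits their precision. The authors' processing brings arrays to a common distribution, and the medians of the 4 arrays lay between 11.23 and 11.27, so a reading compares a transcript with the rest of its own array and not between cultures in absolute amount. In a bulk culture, fewer cells in a state and less RNA per cell cannot be told apart. The 25th percentile of each array, 10.13 for wild type and 10.08 for the deletion at 3 h, served as a floor. Of the 2899 genes, 2337 lay above the floor on at least 1 of the 3 h arrays, 2189 on both and 562 on neither. Where the lowest, highest or brightest gene of a list is named, it is so among the genes above the floor. Over the 2337 genes the median difference was -0.0085, with 1113 genes above 0 and 1224 below 0, and its robust spread (scaled median absolute deviation) was 0.19 log2 units. The change in a gene's difference from 1.5 h to 3 h, divided by the square root of 2, had a robust SD of 0.13. Without robust scaling it was 0.22. These values hold true changes between the times and are no replicate error. The entry genes of meiosis read bright on both arrays at 3 h: ste11 read 13.46 in wild type and 13.56 in the deletion, and mei2 read 14.05 and 14.17.

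At 3 h, 44 genes (1.88%) were higher in the deletion by 2-fold or more and 20 genes (0.856%) were lower by as much, with the higher array above its floor. Another 31 genes (1.33%) read 1.5- to 2-fold higher and 56 (2.4%) read 1.5- to 2-fold lower. Of the 2189 genes above the floor on both arrays, 1535 (70.1%) differed by at most 0.2 log2 units. The 2-fold counts leaned to higher readings and the smaller shifts to lower readings. Differences were wider among dim genes: the robust spread was 0.305 in the dimmest 585 of the 2337 genes and 0.0873 in the brightest 584. The dimmest 585 held 26 of the 44 higher genes and 13 of the 20 lower genes, while the brightest 584 held 3 and 1.

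**Figure D1:**
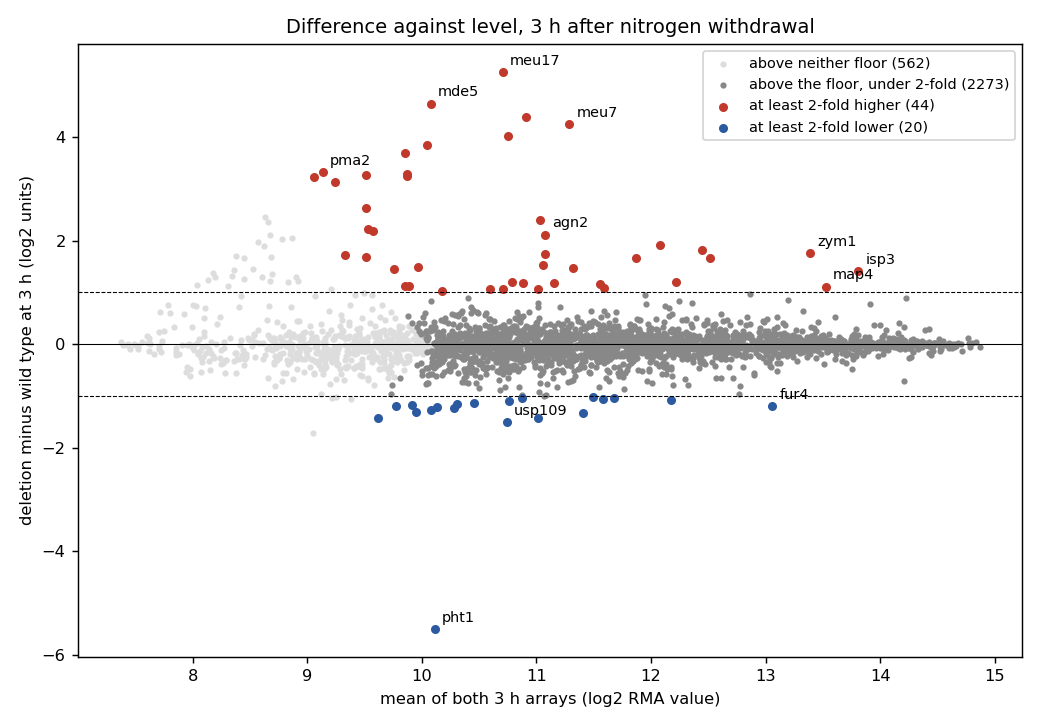
Each point is 1 gene, with the mean of both 3 h arrays on the horizontal axis (log2 RMA value) and deletion minus wild type on the vertical axis (log2 units, 1 array each). Red and blue mark the 44 higher and 20 lower genes, dashed lines mark 2-fold, and the cloud of other genes narrows from a robust spread of 0.305 in the dimmest 585 genes to 0.0873 in the brightest 584.

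The deleted gene checked the labels. The pht1 probe set read 12.70 and 12.86 in wild type at 1.5 h and 3 h, against 7.37 and 7.36 in the deletion. Of the 20 genes that read lower, pht1 stood apart by size, since no other difference went below -1.51. The ura4 probe set, which reads a gene of pyrimidine synthesis used as the marker, was 12.38 in wild type and 11.89 in the deletion at 3 h. The measured genes around pht1 stayed close to their wild type readings. Its neighbour cdc2, the main cyclin-dependent kinase, differed by 0.06, shy1 by -0.24, ivn1 by 0.16, naa25 by 0.15 and ucp8 by 0.02.

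Among the genes of the machinery that loads H2A.Z, only 1 subunit gene differed by 1.5-fold or more at 3 h. Of the 14 measured genes of H2A.Z and the SWR1 complex, 13 passed the floor, and their median difference was -0.07. Of the 10 above the floor on both arrays, 8 differed by at most 0.2, against 70.1% of all genes above both floors. The ATPase gene swr1 read 10.95 in wild type and 10.88 in the deletion, and the helicase genes rvb1 and rvb2 differed by -0.02 and 0.12. The subunit genes arp6, yaf9, vps71, swc3 and swc4 differed by -0.19, -0.14, -0.02, 0.03 and 0.17, and the bromodomain gene bdf1 by -0.15. The chromatin protein gene msc1 differed by 0.35, and alp5, which also serves a histone acetyltransferase, by -0.43. The swc2 gene, whose product binds H2A.Z, lay just under both floors and differed by -0.07. By contrast, swc5 read 10.72 in wild type and 9.45 in the deletion at 3 h, and 10.74 and 9.65 at 1.5 h, so it was lower at both times by a similar amount.

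Core histone genes did not differ by as much as 0.2 log2 units at 3 h, although copies of a histone gene are much alike in sequence and their probes may read one another. Of 22 measured genes for core histones and their chaperones, 20 passed the floor, none reached 1.5-fold, and the median was 0.00. Within 0.2 lay 17 of 19 above both floors, against 70.1% of all such genes and 87.2% of the brightest 584 genes. The H2A genes hta1 and hta2 read 13.68 and 13.86 in wild type against 13.67 and 13.90 in the deletion. The H2B gene htb1 differed by -0.01, the H3 genes hht1, hht2 and hht3 by -0.05, 0.00 and 0.09, and the H4 genes hhf1, hhf2 and hhf3 by -0.01, 0.05 and 0.07. At 1.5 h the same histone genes had read lower in the deletion, by up to -0.73 for hhf1. Among the chaperone genes above the floor the widest differences were -0.28 for pcf3, a subunit of chromatin assembly factor, and 0.22 for nap1, while asf1 stayed under both floors (-0.42).

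Sugar-handling enzymes and a proton pump were among the genes with the widest differences. Where 4 values are given, they are those of wild type and then of the deletion, each in the order 1.5 h, 3 h. The glucosidase gene meu17 read 7.79 and 8.08 in wild type against 12.67 and 13.34 in the deletion. Its wild type readings lay under 8.37, the level 1 unit above the highest reading of the deleted pht1, so the deletion was at least 31.2-fold higher at 3 h. The amylase-like gene mde5 read 7.70 and 7.75 in wild type against 11.49 and 12.40 in the deletion, at least 16.3-fold higher at 3 h. A further amylase-like gene, meu7, read 8.85 and 9.16 in wild type against 12.87 and 13.41 in the deletion, a difference of 4.26 at 3 h. All 3 were thus near the bottom of the wild type array and among the bright genes of the deletion array. The alpha-galactosidase gene mel1 read 9.59 and 9.22 in wild type against 11.60 and 10.71 in the deletion, and it was the only higher gene that read lower in the deletion at 3 h than at 1.5 h. Of 11 amylases and sugar hydrolases, all above the floor, 4 read 2-fold higher and aah2 1.5- to 2-fold higher (0.80), and the median was 0.19. The trehalose genes tps1, tpp1 and ntp1 differed by 0.19, 0.08 and 0.12, the invertase gene inv1 by 0.13, bgl2 by -0.19 and aah3 by -0.24.

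Among genes for hexose and galactose uptake and use, 17 of the 19 above the floor (20 measured) read higher, with a median of 0.26 and 2 at 2-fold. The hexose transporter gene ght6 read 7.65 and 8.12 in wild type against 10.77 and 11.97 in the deletion, at least 12.1-fold higher at 3 h. The epimerase gene gal10 read 9.59 and 10.59 in wild type against 11.07 and 12.06 in the deletion, and its cluster partners gal1 and gal7 differed by 0.41 and 0.37. The transporter genes split by name: ght3 differed by 0.85, ght1 by 0.53 and ght4 by 0.26, whereas ght5, the brightest, read 14.47 and 14.50. The gluconeogenesis gene fbp1 differed by 0.58, and the hexokinase genes hxk1 and hxk2 by 0.01 and -0.05. Of 16 proton pump genes, all above the floor, pma2 alone reached 1.5-fold. The pma2 gene, a spare form of the plasma membrane proton ATPase, read 7.45 and 7.47 in wild type against 10.02 and 10.80 in the deletion, at least 5.36-fold higher at 3 h. The main form, pma1, read 14.12 and 13.93 at 3 h, and vacuolar pump genes ran from -0.24 (vma6) to 0.13 (vma13), with the bright vma3 at 0.03, which left the list's median at -0.06.

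The middle genes of meiosis read higher as a list. Of 30 measured, 21 passed the floor, 10 of them on both arrays and the rest on the deletion array alone, which favours higher readings. Of the 21, 15 read 2-fold higher and 2 more 1.5- to 2-fold higher. None read lower by 1.5-fold, and 1 of the 10 above both floors lay within 0.2. The median was 1.73 over the 21 genes and 1.72 over all 30, against -0.0085 for all genes, and it had been 0.93 over all 30 at 1.5 h. The list was chosen with earlier results of these data known, so its median describes the list and is no independent support. The transcription factor gene mei4 itself read 8.16 and 9.32 in wild type against 9.20 and 10.45 in the deletion, a difference of 1.12 at 3 h. The factor's gene thus differed by less than most of the list. The kinase partner gene spo6 read 7.44 and 7.68 in wild type against 9.46 and 10.81 in the deletion, at least 5.40-fold higher at 3 h, and the kinase gene spo4 stayed under both floors at 7.40 and 9.86. The protein kinase gene mde3 read 7.61 and 8.46 in wild type against 8.53 and 10.19 in the deletion. The gene for Mes1, which restrains the anaphase-promoting complex between the meiotic divisions, read 9.95 and 10.18 in wild type against 10.44 and 11.38 in the deletion. The mRNA-binding protein gene crp79 read 7.46 and 8.20 in wild type against 9.08 and 10.83 in the deletion, at least 5.50-fold higher at 3 h. The smallest differences among members above the floor were those of spo20, a lipid transfer protein (-0.01), spo15 (0.23), crs1 (0.23) and the septin gene spn2 (0.33).

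Genes for the forespore membrane, which encloses each nucleus to make a spore, ran from far higher to lower. Of 22 measured genes for this membrane and the septins, 20 passed the floor, 4 read 2-fold higher, 1 2-fold lower and 1 moderate either way, with a median of 0.01. The leading-edge protein gene meu14 read 8.02 and 8.22 in wild type against 10.43 and 11.52 in the deletion, at least 8.85-fold higher at 3 h. The septin genes of sporulation, spn5 and spn7, differed by 2.23 and 1.73. The spn5 gene read 8.30 and 8.41 in wild type against 8.88 and 10.65 in the deletion, so its difference went from 0.58 at 1.5 h to 2.23 at 3 h. The septin genes of cell division, spn1, spn3 and spn4, differed by -0.04, 0.05 and -0.02. The membrane protein gene spo3 read 9.29 in wild type and 10.42 in the deletion at 3 h, and spo7, which joins the spindle pole body to the membrane, 9.66 and 10.49. The secretion genes psy1, sec9 and syb1 lay within 0.2. On the low side, its3, a phosphoinositide kinase, differed by -1.20, and the ring protein gene cdc15 by -0.95.

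Among cell wall genes, the higher ones were mostly genes of the spore wall and of ascus opening. Of 31 genes of wall glucan and chitin, 25 passed the floor, of which 8 read 2-fold higher, 2 moderately higher, 2 moderately lower and 7 of the 24 above both floors within 0.2, with a median of 0.06. The alpha-glucanase gene agn2, which opens the ascus, read 10.52 and 10.02 in wild type against 11.51 and 12.13 in the deletion. The beta-glucanase gene eng2, also used in opening the ascus, read 11.62 and 11.61 in wild type against 12.30 and 12.82 in the deletion. The spore glucan synthase gene bgs2 read 10.39 and 10.56 in wild type against 10.99 and 11.74 in the deletion. The related genes of cell growth and septation, bgs1, bgs3 and bgs4, differed by -0.13, 0.06 and -0.10. In the alpha-glucan synthase family, mok14, mok11 and mok13 differed by 1.82, 1.06 and 0.80, mok12 by -0.44 and the growth gene ags1 by -0.19. In the glucan-remodelling family, the spore gene gas4 read 11.69 and 11.68 in wild type against 12.93 and 13.34 in the deletion, while gas1, gas2 and gas5 differed by -0.65, -0.04 and -0.53. Spore wall proteins included meu10, which read 7.92 and 11.12 in wild type against 11.61 and 13.04 in the deletion. The outer spore wall protein gene isp3 read 7.99 and 13.11 in wild type against 14.05 and 14.51 in the deletion. For meu10 and isp3 the wild type readings at 3 h were far above those at 1.5 h, and their differences narrowed to 1.92 and 1.41.

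**Figure D2:**
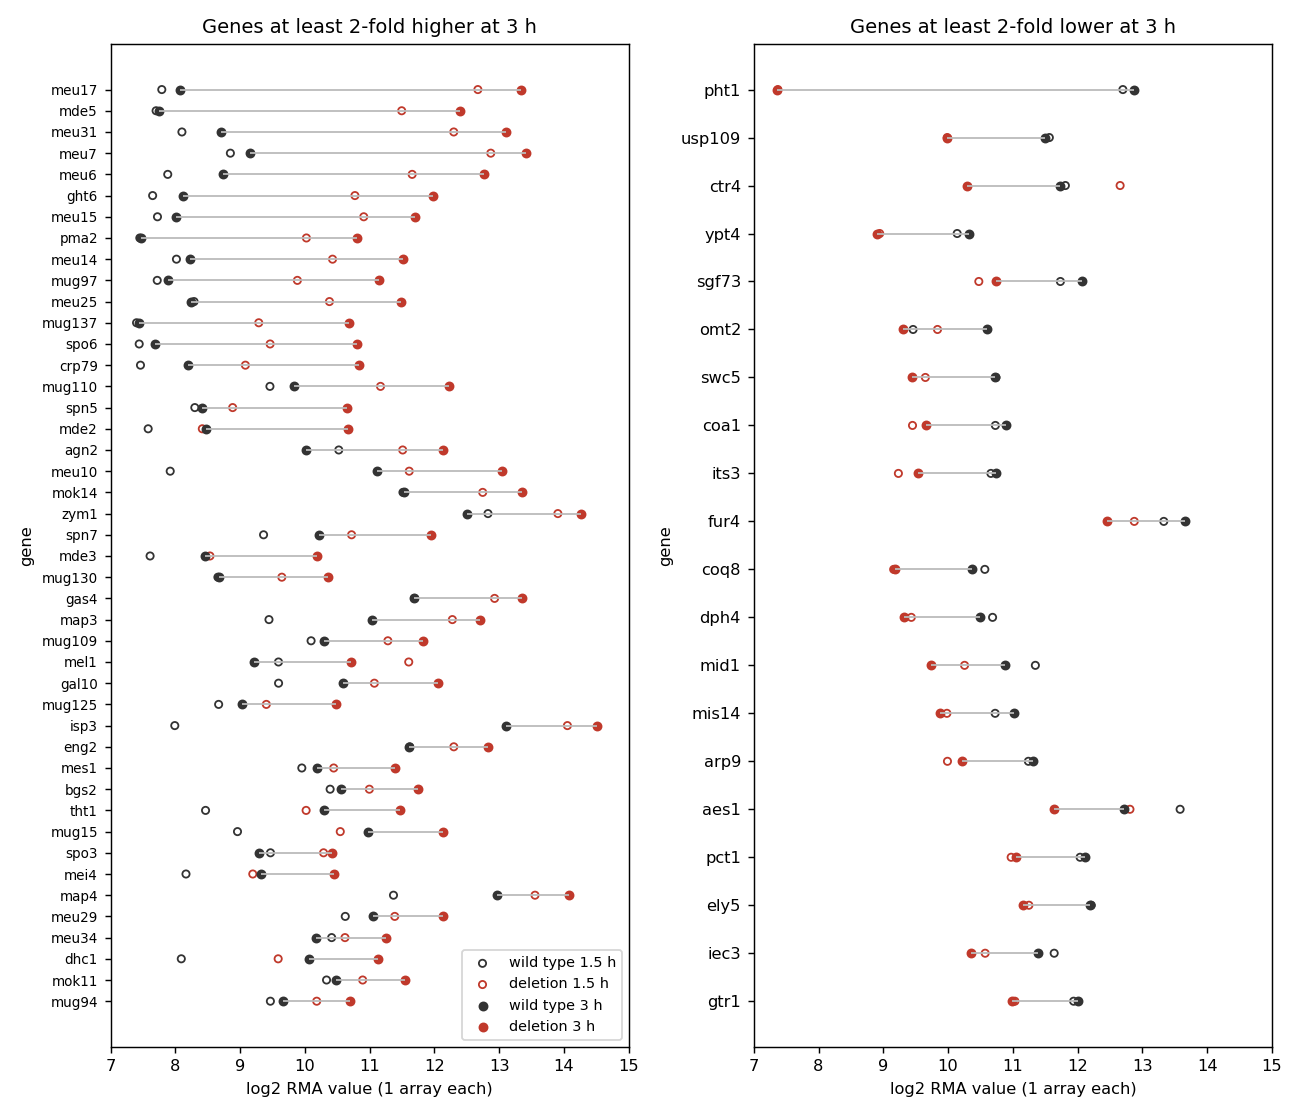
The 4 array values (log2 RMA value, 1 array each) are drawn for the genes at least 2-fold higher in the deletion at 3 h on the left and at least 2-fold lower on the right, with open circles for 1.5 h, filled circles for 3 h, black for wild type and red for the deletion. A grey line joins both 3 h values, and on the left the red open circle lies to the right of the black filled circle for 39 of the 44 genes.

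The remaining genes at 2-fold or more were 14 genes known here by their meiotic names, 4 mating or nuclear movement genes, mde2 and zym1. The 5 highest of the meiotic names were meu31, meu6, meu15, mug97 and meu25. They read 8.71, 8.74, 8.01, 7.89 and 8.25 in wild type against 13.11, 12.76, 11.71, 11.15 and 11.49 in the deletion at 3 h. Next came mug137 (7.44 and 10.67, at least 4.92-fold), mug110 (9.84 and 12.23) and mug130 (8.67 and 10.35). The others differed less: mug109 by 1.53, mug125 by 1.46, mug15 by 1.16, meu29 by 1.08, meu34 by 1.07 and mug94 by 1.03. Of the 18 measured genes named meu, 13 passed the floor, 5 of them on both arrays and the rest on the deletion array alone. Passing on that array alone favours higher readings. All 13 read higher, 10 by 2-fold, meu13 moderately and meu23 least (0.42). The median was 3.24 over the 13 and 1.69 over all 18. Of the 91 measured mug genes, 48 passed the floor and 43 of these read higher, 8 by 2-fold and 2 moderately, with a median of 0.26 over the 48 and 0.33 over all 91. The 1 mug gene that went down by 1.5-fold or more was mug89 (-0.97). Some mug genes stayed near their wild type readings: mug157 read 13.00 and 12.92, and mug35 12.10 and 12.13. The brightest mug gene, mug14, read 14.28 and 14.57. None of the 5 meu genes above both floors lay within 0.2.

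The metallothionein gene zym1 was the brightest of the 2-fold higher genes on the deletion array at 3 h, apart from isp3. It read 12.83 and 12.51 in wild type against 13.90 and 14.27 in the deletion, a 3.39-fold difference at 3 h. In the list of Sty1 and Atf1 stress genes, zym1 was the single gene at 2-fold among 28 above the floor (31 measured), and the list's median was 0.12. The transcription factor gene atf1 differed by 0.78 and its partner pcr1 by 0.30, the phosphatase genes pyp1 and pyp2 by 0.39 and 0.57, and the kinase gene sty1 by 0.01. The bright heat shock gene hsp9 read 14.70 and 14.83, and trr1, the thioredoxin reductase gene, differed by -0.35.

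Pheromone genes of both mating types read bright on both arrays at 3 h; such diploids carry both mating types, as labelled. Their differences ran both ways. All 15 measured genes for pheromones, receptors and processing passed the floor, 2 read 2-fold higher and 2 moderately higher, and the median was 0.03. The genes of the P side read higher: map3, the receptor for M-factor, read 9.45 and 11.04 in wild type against 12.28 and 12.70 in the deletion. The mating adhesin gene map4 read 11.37 and 12.97 in wild type against 13.55 and 14.08 in the deletion, and the P-factor gene map2 differed by 0.89. On the M side, mam1, mam2, mam3 and mam4 differed by -0.34, -0.10, -0.12 and -0.32 at 3 h. At 1.5 h these mam genes had read higher in the deletion, by 0.63, 0.84, 0.99 and 0.87. The median of the whole pheromone list had been 0.84 at 1.5 h. The M-factor genes mfm1, mfm2 and mfm3 differed by 0.03, -0.25 and 0.28, and sxa2, which cuts P-factor, by 0.64. The protease genes krp1 and sxa1 differed by -0.19 and 0.06, and the farnesyltransferase genes cpp1 and cwp1 by 0.07 and -0.24. In the list of pheromone signalling and cell fusion, 15 of the 19 genes above the floor (22 measured) read higher, with a median of 0.17. The karyogamy gene tht1 was the 1 gene at 2-fold, at 8.47 and 10.29 in wild type against 10.02 and 11.47 in the deletion. The kinase gene spk1 lay at 0.04 the G protein gene gpa1 at 0.17 and its regulator rgs1, the brightest, at 0.12, while scd1, an exchange factor for Cdc42, differed by -0.71.

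Recombination genes differed less at 3 h than the middle genes. At 1.5 h the median over all 13 measured genes of break formation had been 0.84, close to 0.93 for all 30 middle genes. Over the same 13 genes it was 0.23 at 3 h. Of 13 measured genes of double-strand break formation, 9 passed the floor, mde2 reached 2-fold, rec15 was moderately higher, 2 of the 8 above both floors lay within 0.2, and the median was 0.29. The exception, mde2, is a break-formation gene known to depend on Mei4. It read 7.58 and 8.48 in wild type against 8.42 and 10.66 in the deletion. The gene of the break-forming enzyme, rec12, read 9.81 and 9.75, under both floors. Genes of the meiotic chromosome axis and of the break complex lay between these: hop1 differed by 0.41, rec10 by 0.20, mug20 by 0.55 and rec25 by 0.29, and the axis kinase gene mek1 by 0.23. Other break genes had no difference of note, with rec6 at -0.05 and rec14 at -0.03, and rec7, rec24 and rec27 stayed under both floors with -0.14, 0.08 and 0.38. In strand exchange and mismatch repair, 25 of 33 genes passed the floor, 3 were moderately higher (msh3 at 0.90, exo1 at 0.65 and meu13 at 0.63), 15 of the 22 above both floors lay within 0.2, and the median was 0.14. The recombinase gene dmc1 differed by 0.35 and rad50, of the end-processing complex, by 0.19. The lowest above the floor was swi10, an endonuclease subunit, at -0.14, and the brightest was swi5, of the recombinase-loading pair, at 0.24. In the cohesin list, 13 of 16 genes passed the floor, none reached 1.5-fold, 8 of the 11 above both floors lay within 0.2, and the median was 0.09. The meiotic subunit genes rec8 and rec11 differed by 0.26 and 0.53, the shugoshin gene sgo1 by 0.54, the mitotic subunit genes rad21 and psc3 by -0.02 and -0.16, and the shared core gene psm3, the brightest, by 0.15.

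In the telomere bouquet and horsetail list, 15 of 22 genes passed the floor, 2 reached 2-fold, 6 of the 13 above both floors lay within 0.2, and the median was 0.17. The dynein heavy chain gene dhc1, the motor of horsetail movement, read 8.09 and 10.06 in wild type against 9.59 and 11.12 in the deletion. The other 2-fold gene of the list was tht1, while num1, the cortical anchor, differed by 0.47 and the telomere protein genes taz1 and rap1 by 0.09 and -0.33. The brightest was bqt4, which ties telomeres to the nuclear envelope, at 0.17. In the list for the switch into meiosis, 20 of 27 genes passed the floor, mei4 read 2-fold higher and the regulator gene rsv1 moderately higher (0.60), and the median was 0.13. The inhibitor kinase gene pat1 differed by 0.49, the protein kinase A genes pka1 and cgs1 by 0.16 and 0.12, and the lowest was rcd1 at -0.25. The list of Mmi1 elimination holds meiotic transcripts that the RNA-binding protein Mmi1 removes in growing cells, together with genes of that removal. All 10 of its genes above the floor (14 measured) read higher, 1 by 2-fold and spo5 moderately (0.78), with a median of 0.23. The removal genes pab2, dis3, red1 and pla1 differed by 0.02, 0.01, 0.14 and 0.22, and mmi1 itself read 9.31 and 9.06, under both floors. Its target genes rec8, crs1, mcp7 and num1 differed by 0.26, 0.23, 0.19 and 0.47, and the dim genes ssm4, meu1 and rrp6 by 0.63, 1.23 and 0.27. Of the 37 cell cycle kinase and anaphase-promoting complex genes, 20 passed the floor, 3 were moderately higher (nuc2 and cdc25 at 0.60 each and mik1 at 0.59), and the median was 0.21. The lowest of the 20 was apc11 at -0.49.

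Just inside the 2-fold limit lay mug94 at 1.03, mok11 and dhc1, and just outside lay mde10, a spore protease gene, at 0.97, mug135 at 0.96 and msh3 at 0.90. The 15 highest genes of the 1.5- to 2-fold class went on from mde10, mug135 and msh3 to map2, ght3, mug4 (0.83), spo7, aah2, mok13, atf1, spo5, rho5 (0.74), iph1 (0.72), omh4 (0.72) and alp1 (0.72). Rho5 is a small GTPase, omh4 a mannosyltransferase gene and alp1 a tubulin-folding gene. Of the 31 genes, 29 read higher at 1.5 h as well and 22 belonged to a list here, against 1229 of all 2899 genes.

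Below both floors, 26 genes were higher by 2-fold or more and 4 were lower by as much, and they were not counted above because neither array passed its floor. Of the 26, 13 had mug or meu names, against 8.54% of the 562 genes under both floors, and all 26 also read higher at 1.5 h. The highest were spo4 at 2.47, meu27 at 2.37, mfr1, an activator of the anaphase-promoting complex in meiosis, at 2.04, the meiotic transcription factor gene cuf2 at 1.97 and the septin gene spn6 at 1.90. Others were mde7 at 1.70, the hexose transporter gene ght7 at 1.68 and the transcription factor gene atf21 at 1.66. In wild type, all 8 of these read under the background level of 8.37. Against that level, the deletion was at least 2.81-fold higher for spo4, 2.69-fold for mfr1, 1.87-fold for atf21 and 1.81-fold for mde7, the least of the 8. The 4 lower genes were pdp1, a chromatin protein gene (-1.72), eaf7 of a histone acetyltransferase complex (-1.06), cnd2 of condensin (-1.04) and adg1 (-1.02).

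The lower genes had varied roles, and 13 of the 20 were among the dimmest 585 genes. Without pht1, the other 19 had a median level of 11.31 in wild type and 9.99 in the deletion. Of these 19, 11 had differences at both times within 0.2 units of each other, and 12 had wild type readings that moved by at most 0.2 between the times. The U1 snRNP gene usp109 read 11.56 and 11.49 in wild type against 9.99 and 9.99 in the deletion. The Rab GTPase gene ypt4 read 10.14 and 10.33 in wild type against 8.94 and 8.91 in the deletion. The SAGA subunit gene sgf73, whose product holds the deubiquitinase module, read 11.73 and 12.07 in wild type against 10.47 and 10.74 in the deletion. For these 3 genes the genotypes were separate at both times, with differences from -1.58 to -1.20.

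Several of the lower genes serve chromatin, transcription and RNA. The actin-related gene arp9, of the SWI/SNF and RSC remodelling complexes, read 11.24 and 11.31 in wild type against 9.99 and 10.21 in the deletion. The Ino80 complex gene iec3 read 11.64 and 11.39 in wild type against 10.57 and 10.36 in the deletion. The mRNA capping gene pct1, an RNA triphosphatase, read 12.04 and 12.11 in wild type against 10.97 and 11.05 in the deletion. The nucleoporin gene ely5 read 12.19 in wild type and 11.16 in the deletion at 3 h, and the kinetochore gene mis14 read 11.02 and 9.88. Mitochondrial genes among them were coa1, for cytochrome oxidase assembly, at 10.90 and 9.67, and coq8, for ubiquinone synthesis, at 10.37 and 9.18. The diphthamide gene dph4 read 10.50 and 9.32, the Rag GTPase gene gtr1 12.01 and 10.98, and the anillin-like gene mid1, which places the division ring, 10.88 and 9.73. The last were its3 at 10.73 and 9.53, and aes1 at 12.71 and 11.63.

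Of the 20 lower genes, 3 were not lower by 1.5-fold at 1.5 h, and both of those with a known role are transporters of the cell surface. The uracil permease gene fur4 read 13.33 and 13.66 in wild type against 12.87 and 12.46 in the deletion, a difference of -1.20 at 3 h against -0.46 at 1.5 h. The omt2 gene read 9.46 and 10.60 in wild type against 9.84 and 9.30 in the deletion. The copper transporter gene ctr4 read 11.81 and 11.72 in wild type against 12.66 and 10.30 in the deletion, so it was higher in the deletion at 1.5 h (0.85) and lower at 3 h (-1.42). Its partner ctr5 ran the same way with smaller differences, 0.50 at 1.5 h and -0.80 at 3 h. In the list of copper, iron, zinc and phosphate, 23 of 27 genes passed the floor, zym1 read 2-fold higher, ctr4 2-fold and ctr5 moderately lower, and the median was 0.07. The copper-sensing factor gene cuf1 differed by -0.21, the vacuolar copper transporter gene ctr6 by -0.14 and the superoxide dismutase gene sod1 by 0.10.

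Just inside the lower limit lay gtr1 (-1.02), iec3 and ely5, and just outside lay rps1401 (-0.99), the kinase gene ppk6 (-0.98) and mug89 (-0.97). After these, the 15 lowest genes of the 1.5- to 2-fold class were cdc15 and gln1 (-0.95 each), ptf2 (-0.93), uds1 (-0.88), dim1 (-0.87), pof13 (-0.84), adg3 (-0.83), ssr1 (-0.82), naa50 (-0.82), swi2 (-0.82), dph5 (-0.80) and ctr5. Gln1 is glutamine synthetase, naa50 a protein acetyltransferase, swi2 a mating-type switching factor and dph5 an enzyme of diphthamide synthesis like dph4. Of the 56 genes, 52 also read lower at 1.5 h, and 21 belonged to a list, against 1229 of all 2899 genes. The exceptions included rps1401, which was 0.51 higher at 1.5 h and whose sequence is nearly that of rps1402 (-0.11 at 3 h), so probes may read both genes and its value is uncertain.

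Chromatin remodellers and histone modifiers read slightly lower as a list. Of 42 measured, 34 passed the floor and 31 of them read below 0, against 1224 of 2337 genes in all, with a median of -0.24 against -0.0085. The list held 2 genes at 2-fold lower (arp9 and iec3), 2 moderately lower (ssr1 and rsc4, at -0.61, both remodelling subunits), and 11 of the 30 above both floors within 0.2. Among the ATPases of remodelling complexes, snf21 differed by -0.22, snf22 by -0.13, ino80 by -0.07, hrp1 by -0.43 and hrp3 by -0.29. The RSC subunits rsc1, rsc7 and rsc58 differed by -0.23, -0.18 and -0.45, and rsc9 by 0.00. The histone methyltransferase genes set1 and set2 differed by -0.14 and -0.47. The 3 genes above 0 were hat1, a histone acetyltransferase gene, at 0.41, ies6 at 0.13 and tfg3 at 0.02, and the brightest of the list, fft3, lay at -0.13. The median had been -0.28 at 1.5 h.

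SAGA, heterochromatin and kinetochore genes leaned the same way with smaller counts. Of 18 SAGA genes, 13 passed the floor, 10 read below 0, sgf73 was 2-fold and spt20 moderately lower (-0.75), and the median was -0.19. The SAGA deubiquitinase gene ubp8 went against this at 0.44, and the bright taf5 lay at -0.12. Of 25 heterochromatin and RNA interference genes, 14 passed the floor with a median of -0.12. The Argonaute-binding protein genes arb1 and arb2 lay apart, at -0.71 and 0.62, and the heterochromatin protein gene swi6 and the Argonaute gene ago1 at 0.00 and 0.08. The deacetylase genes clr3 and clr6 differed by -0.32 and -0.34. Of 37 kinetochore and centromere genes, 16 passed the floor, mis14 was 2-fold and ask1 moderately lower (-0.65), and the median was -0.22 over the 16 and -0.13 over all 37. The centromeric H3 gene cnp1 differed by 0.26 and the brightest, fta3, by 0.10. Of the 45 Mediator and general transcription factor genes, 32 passed the floor, none reached 1.5-fold, 23 of 30 above both floors lay within 0.2, and the median was -0.04. The TATA-binding protein gene tbp1 read 13.94 and 13.92, and the extremes were the Mediator genes srb7 at 0.47 and srb8 at -0.43.

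**Figure D3:**
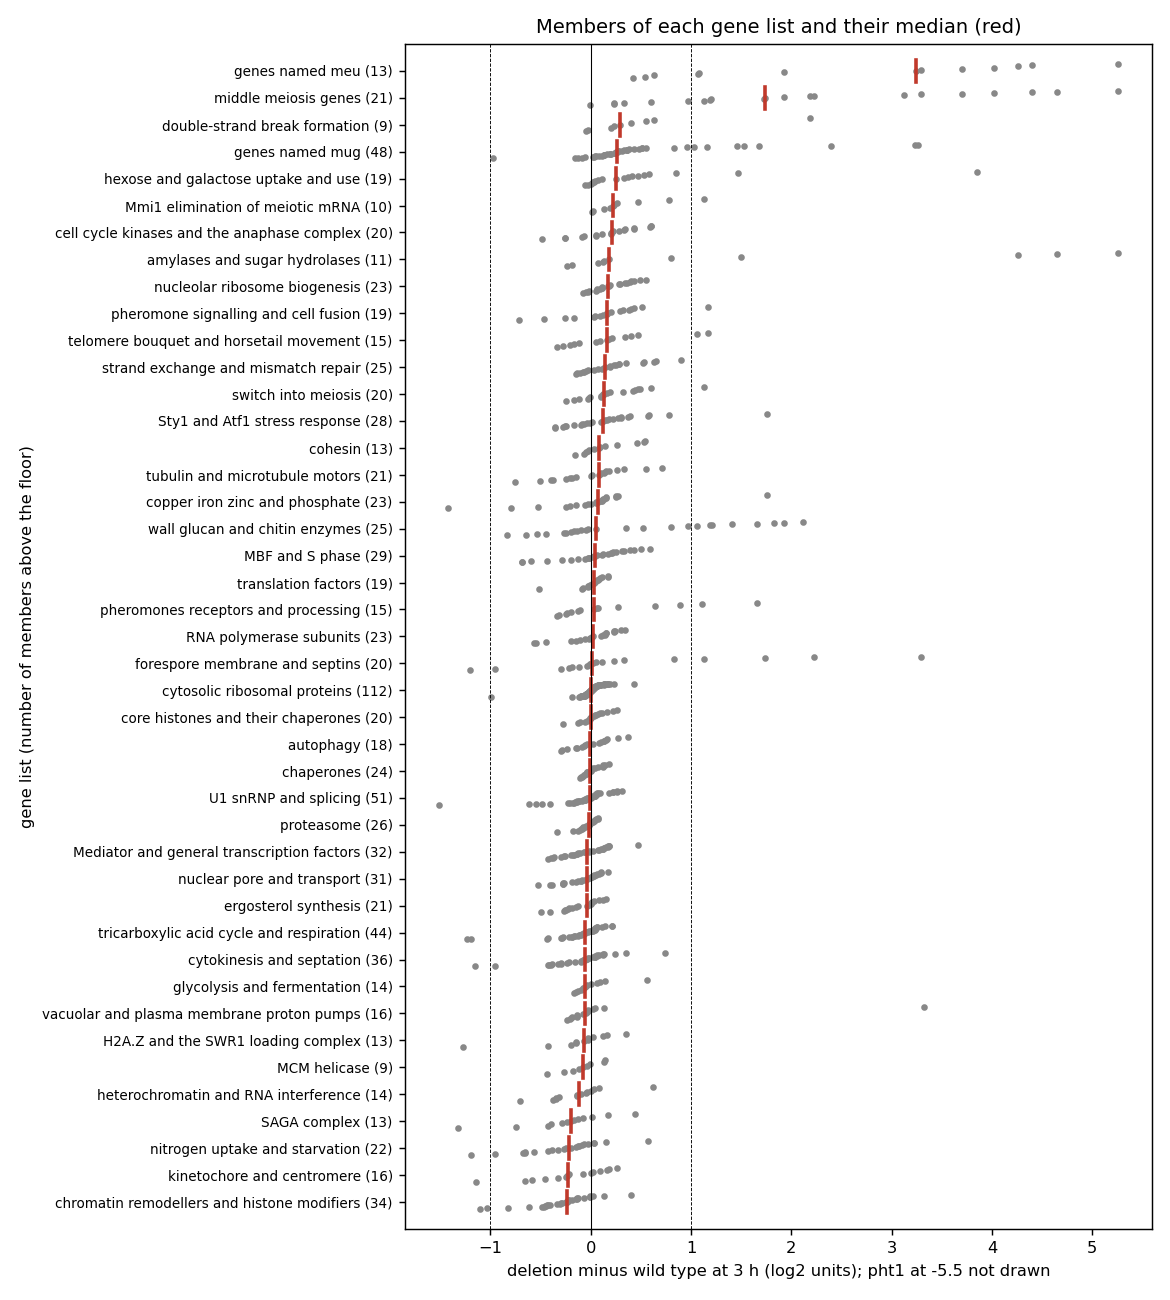
Each grey point is 1 gene above the floor, placed by deletion minus wild type at 3 h (log2 units, 1 array each) in the row of its gene list, and the red bar is the list's median. The rows run from genes named meu (median 3.24) and middle meiosis genes (1.73) at the top to chromatin remodellers and histone modifiers (-0.24) at the bottom, and most medians lie near 0.

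Genes of nitrogen use read lower more often than higher. Of 24 measured, 22 passed the floor, 18 read below 0, fur4 was 2-fold lower and 4 were moderately lower, with a median of -0.22. The 4 were gln1, isp7 (-0.68), the ammonium transporter gene amt1 (-0.66) and the proline permease gene put4 (-0.65). The bright protease gene isp6 and the oligopeptide transporter gene isp4, both induced by starvation, read 14.24 and 13.87 in wild type against 14.21 and 13.90 in the deletion. The kinase gene tor1 differed by -0.11, the GATA factor gene gaf1 by -0.09, the bright glutamate dehydrogenase gene gdh1 by -0.13, and the highest was cat1, an amino acid transporter gene, at 0.57. Of 20 autophagy genes, 18 passed the floor, none reached 1.5-fold, 13 lay within 0.2, and the median was 0.00, with atg8 highest at 0.38, atg1 lowest at -0.30 and the bright Rab gene ypt7 at -0.03.

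Most expressed genes of growth and metabolism stayed near their wild type readings, as did most genes in general. The share within 0.2 was 70.1% of all genes above both floors and 87.2% of the brightest 584. Of 113 cytosolic ribosomal protein genes, 112 passed both floors, 109 lay within 0.2, and the median was 0.00. The exceptions were rpl3002 (0.43), rpp203 (0.24) and rps1401. All 24 chaperone genes lay within 0.2, from wos2 at -0.10 to mge1 at 0.18, with a median of -0.01. Of 26 proteasome genes, 25 lay within 0.2 and the median was -0.01, with rpn1302 the exception at -0.33 and rpn6 and pts1 highest at 0.07 each. Of 19 translation factor genes, 18 lay within 0.2 and the median was 0.03, with the cap-binding protein gene tif452 the exception at -0.52 and tif225 highest at 0.17.

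In energy genes the share near wild type differed between lists. Of 15 glycolysis and fermentation genes, 14 passed both floors, 13 lay within 0.2, and the median was -0.05. The 1 outside was eno102, a minor enolase gene, at 0.57, while the main enolase gene eno101 read 14.81 and 14.76. The genes of the main path were all at or below 0: tpi1 differed by -0.04, pgi1 by -0.05, fba1 and gpm1 by -0.08 each, adh1 by -0.10, pgk1 by -0.13, pyk1 by -0.15 and pfk1 by -0.17. The side-path genes zwf1, tal1, gpd1 and gpd2 differed by 0.00, 0.07, 0.14 and 0.09, and the alcohol dehydrogenase gene adh4 stayed under both floors (-0.59). Of 44 genes of the tricarboxylic acid cycle and respiration, all above the floor, 34 of 42 above both floors lay within 0.2 and the median was -0.05. Besides coa1 and coq8, the lowest were ppt1 (-0.44) and tim18 (-0.42), the highest was sco1 (0.21), and the succinate dehydrogenase genes sdh1, sdh2 and sdh3 differed by -0.29, -0.27 and -0.28. The ATP synthase genes atp1, atp2 and atp3 differed by 0.01, -0.05 and -0.03. Of 22 ergosterol genes, 21 passed both floors, 14 lay within 0.2, and the median was -0.04, with erg24 highest at 0.15, the bright erg5 at -0.04 and scp1, of the sterol sensor, lowest at -0.50.

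Genes of RNA synthesis and processing showed small shifts within their lists. Of 25 nucleolar ribosome biogenesis genes, 23 passed the floor and 19 read above 0, with a median of 0.17 and none at 1.5-fold. The helicase genes dbp2 and has1 differed by 0.55 and 0.49, the nucleolin-like gene gar2 by 0.40, the fibrillarin gene fib1 by 0.06 and tif6, the lowest, by -0.07. Of 29 RNA polymerase genes, 23 passed both floors, 15 lay within 0.2, and the median was 0.02. Polymerase I subunits rpa2 and rpa12 differed by 0.31 and 0.34, and polymerase II subunits rpb1, rpb2, rpb3 and rpb7 by -0.19, -0.11, -0.54 and -0.44. The shared subunit rpb6 was lowest at -0.56. Of 57 splicing genes, 51 passed the floor, 39 of 50 above both floors lay within 0.2, and the median was -0.01. Apart from usp109, the widest was smd2, a core snRNP gene, at -0.61, while the U1 genes usp101, usp102, usp103, usp107 and usp108 differed by 0.01, 0.06, 0.22, 0.01 and 0.06. The highest was cwf11 at 0.31 and the brightest smd3 at 0.02. Of 33 nuclear pore and transport genes, 31 passed the floor, 24 of 30 above both floors lay within 0.2, and the median was -0.04, with nup61 lowest at -0.53, kap123 highest at 0.17 and the bright Ran gene spi1 at 0.06.

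DNA replication and the cytoskeleton completed the lists. Of 38 genes of S phase and the MBF transcription factor, 29 passed the floor, mik1 was moderately higher and 3 were moderately lower, and the median was 0.05. The 3 lower genes serve origins: orc3 (-0.69), orc1 (-0.68) and cdc23 (-0.60). MBF target genes cdc18, cig2, cdc22 and yox1 differed by 0.50, 0.43, 0.31 and 0.40, and cdc18 had been at -0.59 at 1.5 h. Of 11 genes of the MCM helicase and its partners, 9 passed both floors, 7 lay within 0.2, and the median was -0.08. The lowest was mcm7 at -0.43, mcm6, mcm4, mcm5 and mcm3 differed by -0.04, -0.12, -0.18 and -0.26, and mcm2 and psf1 stayed under both floors (-0.02 and 0.21). The highest were sld5 at 0.14 and psf3 at 0.13, and psf2 and mcb1 differed by -0.08 and -0.01. Of 49 cytokinesis genes, 36 passed the floor, mid1 was 2-fold and cdc15 moderately lower, rho5 moderately higher, and the median was -0.05. The actin genes of the ring were steady, with act1 at 14.45 and 14.42 and the tropomyosin gene cdc8 at 13.93 and 13.88. Of 36 tubulin and microtubule motor genes, 21 passed the floor, alp1 was moderately higher (0.72) and tea1, a polarity gene, moderately lower (-0.75), and the median was 0.08. The tubulin genes nda2, nda3 and atb2 differed by 0.10, 0.01 and 0.00.

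Of the brightest 584 genes, 509 (87.2%) differed by at most 0.2 log2 units at 3 h. Other bright genes lay outside that limit, such as obr1 at 14.56 and 13.85 and map2 at 13.78 and 14.67. The very brightest of the near-equal genes follow. The limit itself picked them, so their close match is no result. The thiazole synthesis gene thi2 read 14.89 and 14.84, the elongation factor gene tef101 14.82 and 14.86, the ubiquitin fusion gene ubi3 14.79 and 14.81, and the thiamine-repressed gene nmt1 14.77 and 14.79. The next were eno101, hsp9, urg1 (-0.12), rpl1001 (0.00), rpl4102 (0.02), ppi1 (0.00), tpi1 (-0.04), hsp90 (-0.06), cpy1 (0.01), gpm1 (-0.08) and rps13 (0.02). They include genes of glycolysis, translation and protein folding.

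Set against 1.5 h, some differences were wider at 3 h and others narrower. At 1.5 h, 60 genes (2.57%) were higher in the deletion by 2-fold or more and 21 (0.901%) were lower by as much. Both comparisons use different arrays, but the genotype is the same and the labels do not say whether both times came from 1 culture. All 44 higher genes of 3 h also read higher at 1.5 h, 22 of them by 2-fold, and 35 had the larger difference at 3 h. The 44 were picked by 3 h readings that were high in the deletion against wild type. That favours a wider difference at 3 h, and low wild type readings at 3 h favour the next count too. In 39 of the 44, the deletion at 1.5 h already read above the wild type at 3 h. The exceptions were mde2, mei4, tht1, dhc1 and mug15, whose wild type readings at 3 h were the higher ones. The wild type read higher at 3 h than at 1.5 h for 36 of the 44 genes, by 2-fold for 8, and the deletion for 43, by 2-fold for 19. Picking genes at 3 h favours the deletion's count over that of wild type. No share over all genes is given for these rises or for the counts of same direction at 1.5 h, here and above. Of the 60 genes at 1.5 h, 30 were still at least 1.5-fold higher at 3 h, 29 were not, and pcm2 lay under both floors.

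The narrower differences included meiotic genes whose wild type readings were far higher at 3 h than at 1.5 h. The RNA-binding protein gene spo5 read 8.65 and 13.53 in wild type against 12.98 and 14.30 in the deletion, so its difference went from 4.33 to 0.78. The cyclin-like gene crs1 read 8.38 and 12.52 in wild type against 11.04 and 12.75 in the deletion, from 2.66 to 0.23. The axis gene hop1 read 9.24 and 12.28 in wild type against 11.26 and 12.69 in the deletion, from 2.02 to 0.41. Of the genes 2-fold higher at 1.5 h, aif1, isa1, scm3 and spk1 lay within 0.2 at 3 h. Of the 44, 4 had been under 1.5-fold at 1.5 h, namely spn5 (0.58), mes1 (0.49), mok11 (0.56) and meu34 (0.21). Of the 21 genes lower at 1.5 h, 13 were so again at 3 h, and ptf2, naa50, mug89 and dim1 were moderately lower. The ergosterol gene erg32 had been at -1.18 and lay at -0.14 at 3 h.

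**Figure D4:**
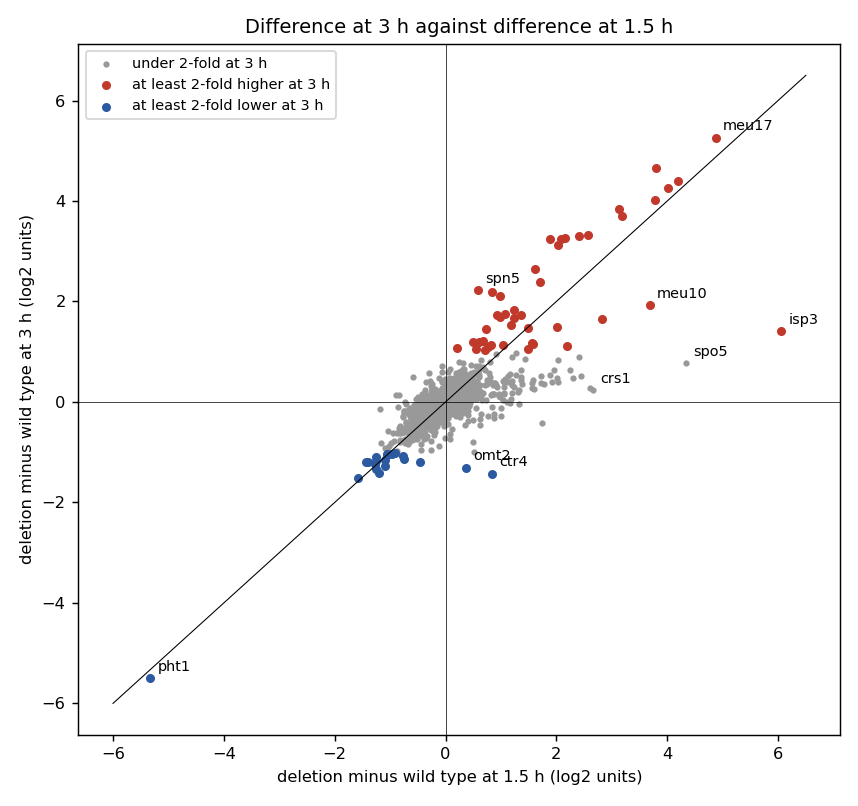
Each point is 1 gene above the floor at 3 h, with deletion minus wild type at 1.5 h on the horizontal axis and at 3 h on the vertical axis (log2 units, 1 array each), and the diagonal line marks equal differences. Higher genes (red) lie mostly above the diagonal, isp3, meu10 and spo5 (grey) lie far below it, and of the lower genes (blue) ctr4, omt2 and fur4 lie farthest below it. Colours were set by the 3 h readings, which favours higher genes above the diagonal and lower genes below it.

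Along the chromosomes, among named genes above the floor, no 2-fold gene lay next to another of the same direction. The shares of all genes with such a neighbour were small too. Probe sets without a gene name and genes under both floors were left out, so a neighbour counted as measured only if named and above the floor. Gene order was taken from RefSeq, over protein-coding genes. Of 1100 adjacent pairs with both genes above the floor, none held a pair of 2-fold higher or of 2-fold lower genes. There were 28 higher genes with a measured neighbour, of which 0 lay next to another higher gene, while 2.21% of 1632 genes with a measured neighbour did. The share next to a lower gene was 0 of 14 lower genes, against 1.10% of the 1632. At 1.5-fold, swc5 (-1.28) lay next to dph5 (-0.80), aah2 (0.80) next to mok11 (1.06) and ani1 (0.60) next to meu14 (3.30). Other neighbours went opposite ways: meu25 (3.24) lay between ask1 (-0.65) and uds1 (-0.88), and exo1 (0.65) lay next to ely5 (-1.04). The higher and lower genes numbered 22 and 8 of 1062 on chromosome I, 16 and 7 of 896 on II, and 6 and 5 of 374 on III. Within 40 protein-coding genes of a chromosome end, a window chosen with results of these data known, 43 genes passed the floor and their median was 0.06. Of these, 3 (6.98%) read 2-fold higher, namely mel1, isp3 and gal10, and 2 (4.65%) lower, namely usp109 and aes1. Elsewhere, 41 of 2289 genes (1.79%) were higher and 18 (0.786%) lower.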

How the data were processed

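Per the submitters' processing notes, the authors made the deposited log2 values with RMA, which corrects background, equalizes distributions and summarises each probe set. Neither its version nor the set of arrays it was run on is given in the sources used here. Per the labels' protocols, poly(A) RNA of DNase-treated total RNA was used. Of 4999 probe sets, 2917 carried 1 symbol in the platform annotation, 20 carried several and 2062 were without a usable symbol here. RefSeq (assembly ASM294v3) matched 2914 of the named sets and updated 113 symbols. For 14 genes with several sets, the brightest set was taken.

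The 3 h arrays were subtracted, and no test was made with 1 array a group. Counts needed the higher array above its 25th percentile. The 43 gene lists, the genes and the thresholds were chosen with earlier results of these data known. Named genes were pht1, ura4, all 2-fold genes, the 15 widest moderate genes each way, the 15 brightest near-equal genes, and for each list its extremes and brightest gene, or all members of short lists; some others were added after their values were seen. The steps were tested on simulated data. Alternatives covered floor, scaling, probe sets and threshold. The work used pandas 2.3.3 and numpy 2.4.6 under Python 3.11.15, with statsmodels 0.14.6 for lowess and matplotlib 3.10.9 for plots.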

Additional observations from a re-analysis of the deposited data

Results flagged for a closer look

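The copper transporter gene ctr4 read lower in the deletion at 3 h by -1.42 log2 units and higher at 1.5 h by 0.85, the only named gene at least 1.5-fold in opposite directions at the 2 times. The difference between the times was not tested, since each value is 1 array minus 1 array.

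Probe sets without a gene name were used in no comparison. Of the 1522 above the floor at 3 h, 25 (1.64%) read at least 2-fold higher in the deletion and 17 (1.12%) at least 2-fold lower, with a largest difference of 3.99 and a lowest of -2.21. Their identity was not analysed here.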

How the results depend on the processing

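Quantile normalization of the 4 arrays, removal of a lowess trend, centring on the median and the mean of a gene's probe sets moved no count by over 1.5 times, no list median by over the spread used for comparison and no 2-fold gene under 2-fold; the largest move of a 2-fold gene was 0.082 log2 units. The floor and the fold decided the counts. Without a floor, 70 genes read 2-fold higher and 50 moderately higher, and the medians were 0.055 for cell cycle and anaphase genes (0.21 with the floor), -0.054 for tubulin and motor genes (0.08 with it) and 1.69 for genes named meu. With the floor at the array median, 29 genes read 2-fold higher, 11 lower, 18 moderately higher and 33 moderately lower, and the medians were 0.35 for wall genes and 0.19 for S phase genes. At 3-fold, 26 genes read higher and 1 lower, which was the deleted pht1 itself. Fewer or more genes pass by construction in each case. No paired analysis was possible because each group is 1 array and the labels give no replicate numbers, and for the same reason no array could be left out. Signal near background limits the dim genes: 26 of the 44 higher genes had wild type readings at or under the floor.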
